A study of Mus musculus with 4 samples.

Results

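The genes described here are nuclear genes of the mitochondrial respiratory chain and of the Chchd family, taken from a list of 53 symbols that was written with earlier results of these arrays known. A gene entered through the probe sets that the platform annotation assigns to its symbol alone, and a gene with several was represented by the one whose mean log2 value was highest. By this rule 51 of the 53 had a probe set, and these 51 all passed the filter on dim signals, among 6956 genes tested in all. The 51 comprised 27 genes of complex I, 4 of complex II, 6 of complex III, 7 of complex IV, 5 of complex V and 2 Chchd genes. Cox7b had no probe set in the annotation, and Chchd2 shared its probe sets with other genes.

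The study measured RNA of Py-4-1 cells, a mouse hemangioendothelioma line, that is, cells of an endothelial tumour. One-colour Affymetrix arrays were run on 2 clones labelled as stably expressing Prox1 (pcDNA/Prox1) and on 2 control-transfected clones (pcDNA), with 1 array for each clone, and the title concerns the invasion of kaposiform hemangioendothelioma. All 4 clones share the Py-4-1 background and a pcDNA transfection. A clone is a line grown from a transfected cell, so differences between clones, cultures and arrays cannot be told apart within a group. Limma p-values and standard errors combine the spread between these 4 arrays with a spread shared by probe sets of like intensity. With 2 clones on either side, the smallest p that an exact permutation test allows is 0.33.

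The oxidative phosphorylation system passes electrons from NADH through complex I, or from succinate through complex II, to ubiquinone, then through complex III and cytochrome c to complex IV, where oxygen is reduced. Complexes I, III and IV pump protons across the inner mitochondrial membrane, and complex V, the ATP synthase, makes ATP as the protons return. Chchd proteins carry a coiled-coil-helix-coiled-coil-helix domain with paired cysteines, lie mostly in the intermembrane space and include subunits of the machinery that shapes cristae. Endothelial cells are known to draw much of their ATP from glycolysis.

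Values are MAS5 signal intensities on a linear scale, and log2 changes were computed as Prox1-labelled minus control clones on log2(intensity + 47.2). Median intensities of the 4 arrays ran from 163 to 179.7. Prox1, read from its 1 probe set, stood at 62.4 and 44.3 in Prox1-labelled clones 1 and 2, against 52.1 and 60.5 in control clones 1 and 2, which is below the filter, and its log2 change without the filter was -0.05 ± 0.20 (limma adjusted p = 0.963). The match of these Prox1 probes to the pcDNA/Prox1 construct was not tested, so the values cannot show whether the construct was expressed. The groups are therefore called by their labels, and every direction below rests on those labels. Of 10 endothelial markers, 9 passed the filter. The log2 changes of these 9 ran from 0.12 (Pecam1) to 1.58 (Flt1), and 0 were called. Cldn5 was the endothelial marker below the filter. The summed intensity of all 10 was 34448 to 37047 in Prox1-labelled clones. It was 26575 in control clone 1 and 33332 in control clone 2. Above the filter were 1 of 4 leukocyte markers (Cd68), 0 of 4 of epithelium, 1 of 4 of smooth muscle and pericytes (Acta2) and 1 of 5 of striated muscle (Tnnt2). Sums over all measured markers, passing or not, were 783 to 895 for leukocytes and 199 to 335 for epithelium in Prox1-labelled clones. In the same clones they were 419 to 446 for smooth muscle and 448 to 485 for striated muscle. In control clones these sums were 924 to 1062, 188 to 198, 406 to 668 and 285 to 458 in the same order. The part of these markers in the results was not tested. Control probe sets for Bacillus genes, 27 in number, peaked at 88.4 and 97.5 in Prox1-labelled clones and at 45.3 and 101 in control clones. In bulk RNA, fewer cells with a transcript and less of it per cell cannot be told apart.

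None of the 51 genes passed the test between Prox1-labelled and control clones. At a limma adjusted p under 0.05, 0 of 51 were called, where 0.103% of all 11656 probe sets tested were (12 probe sets, 0.0944% higher and 0.00858% lower). Unadjusted, 6 of 51 genes (11.8%) had a p under 0.05, against 14.5% of all probe sets tested. Of these 6, 5 were lower in the Prox1-labelled clones, namely Chchd10, Uqcrq, Uqcrfs1, Atp5a1 and Ndufa13, and Ndufa4 was higher, where the background was 5.88% lower and 8.65% higher. An absolute log2 change of 0.5 or more was found for 4 of the 51 genes (Chchd10, Uqcrq, Ndufa4 and Uqcrfs1), against 14.4% of all probe sets tested. The smallest adjusted p among the 51 was 0.165. Calls depended on single clones. Without control clone 2, 5 of the 51 were called (9.8%, Chchd10, Uqcrq, Uqcrb, Cox8a and Ndufa4), and 9.87% of all probe sets tested were, so the members' share was that of the background. Without Prox1-labelled clone 1, 1 of the 51 was called (1.96%, Chchd10), against 0.36% of all probe sets tested.

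**Figure D1:**
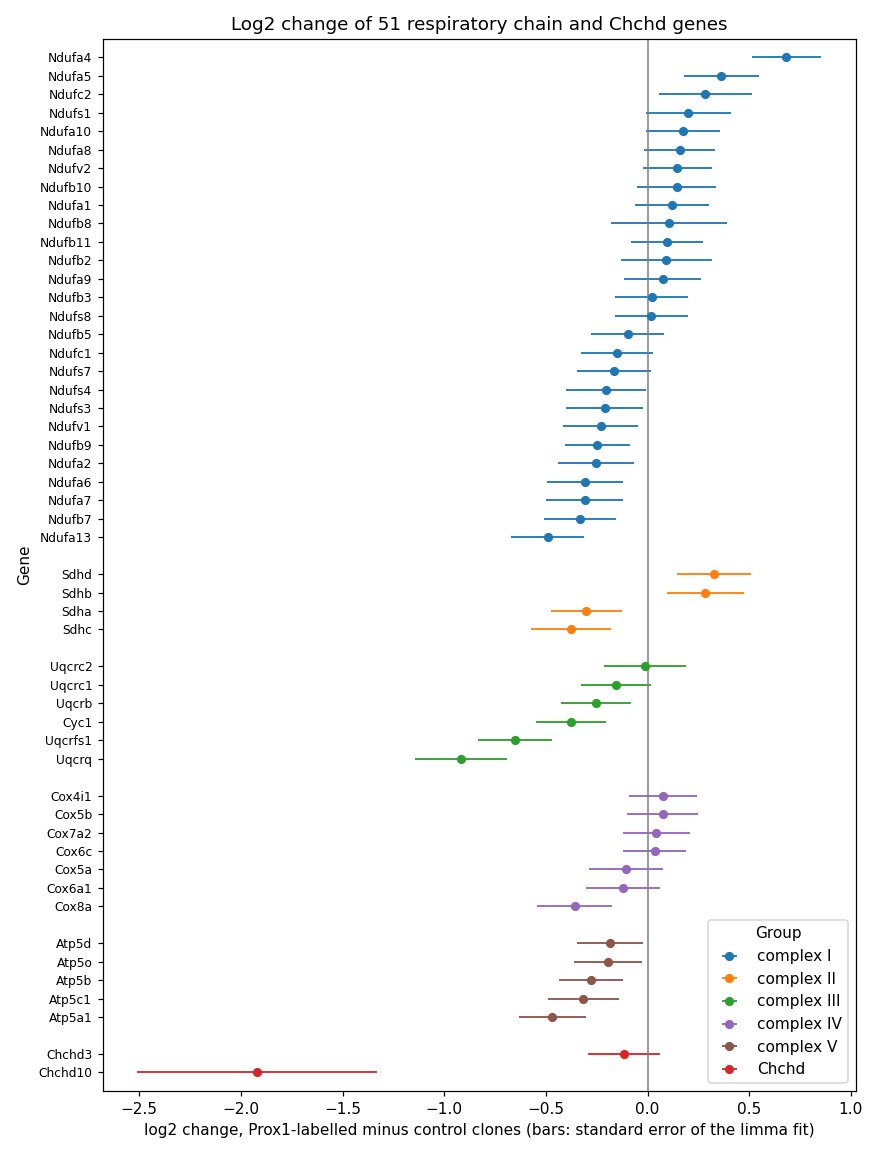
Log2 change (x axis, Prox1-labelled minus control clones) of the 51 genes, grouped by complex and sorted within it, with points at the fitted change and bars for the standard error of the limma fit. The listed complex III, complex V and Chchd genes all lie left of 0, while complexes I, II and IV have genes on both sides, and 0 of the 51 passed the test.

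Among the listed genes, the log2 change was negative for 6 of 6 complex III genes, 5 of 5 complex V genes and 2 of 2 Chchd genes. It was negative for 12 of 27 complex I, 2 of 4 complex II and 3 of 7 complex IV genes, where 48.5% of all probe sets tested were negative. Among the complex III, complex V and Chchd genes, Uqcrc2 (-0.01) and Chchd3 (-0.12) had another probe set above the filter with a positive change (0.25 and 0.30). The median change was -0.32 for complex III and -0.28 for complex V, beside 0.02 for complex I, -0.01 for complex II and 0.04 for complex IV, and 0.01 over all probe sets tested. Further subunits of complexes III and V, which the list of 53 does not hold, did not share this direction throughout. Of 3 further complex III subunits, Uqcrh (0.59) and Uqcr11 (0.09) were positive and Uqcr10 (-0.15) negative, and of 10 further complex V subunits 7 were negative and Atp5j (0.12), Atp5j2 (0.06) and Atp5f1 (0.0011) were positive, and the median over all measured subunits was -0.16 for complex III (9 genes) and -0.15 for complex V (15 genes). Of 6 further complex I subunits 5 were positive, all without overlap, and the median over the 33 measured was 0.09. Subunits of a complex are not replicates of each other, and no test of these medians was made. The groups did not overlap at 30 of the 51 genes (58.8%), where 46.2% of all probe sets tested did not. Of these 30, 24 were lower in the Prox1-labelled clones (47.1% of the 51 genes) and 6 were higher, where the background was 22.3% lower and 23.9% higher.

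**Figure D2:**
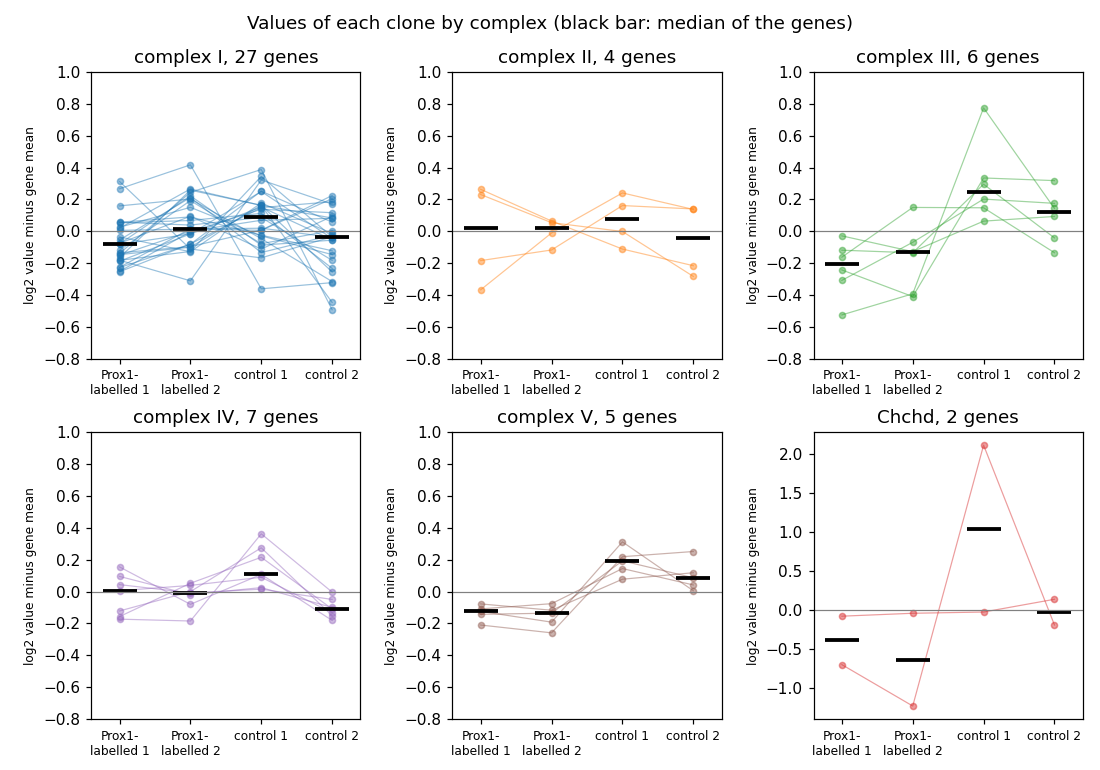
Log2 value of each gene minus its mean over the 4 arrays (y axis) in Prox1-labelled clones 1 and 2 and control clones 1 and 2 (x axis), in 1 panel for each complex, with a line for each gene and a black bar for the median. The complex III and V medians are below 0 in both Prox1-labelled clones and above 0 in both control clones, and the Chchd panel, which has a wider y axis, is dominated by Chchd10 in control clone 1.

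Control clone 1 read above control clone 2 for 37 of the 51 genes, as against 5358 of all 11656 probe sets tested. The median absolute log2 difference over the 51 genes was 0.13 between the Prox1-labelled clones, 0.16 between the control clones and 0.21 to 0.31 between clones of different groups. Over all probe sets tested it was 0.16 between the Prox1-labelled clones, 0.26 between the control clones and 0.23 to 0.29 between groups. The size of the gap between the control clones was therefore not particular to these genes, but its direction differed. The median log2 difference, control clone 2 minus control clone 1, was -0.11 over the 51 genes and 0.04 over all probe sets tested. The median of complex IV was 0.11 in control clone 1 and -0.11 in control clone 2 on the centred log2 scale, a wider gap than its change between groups.

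Sequences around the start sites of 4 genes are shown, because of the 4 genes with an absolute log2 change of 0.5 or more, 3 (Chchd10, Ndufa4 and Uqcrfs1) have a window in RefSeq's table for GRCm38.p6, and Cox6a1, the fourth sequence, holds 2 motifs known from respiratory chain promoters. Each runs 5′ to 3′ on the gene's strand, from 250 bases before to 50 bases after the start, with motif matches in capitals.
Chchd10 promoter window (GRCm38.p6, chr10:75932880-75933179, plus strand): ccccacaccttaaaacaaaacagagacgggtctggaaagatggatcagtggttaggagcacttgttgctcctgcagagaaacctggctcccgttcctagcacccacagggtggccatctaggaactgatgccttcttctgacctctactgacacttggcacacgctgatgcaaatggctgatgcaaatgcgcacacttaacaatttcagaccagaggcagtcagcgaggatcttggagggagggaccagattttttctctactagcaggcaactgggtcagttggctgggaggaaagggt
Ndufa4 promoter window (GRCm38.p6, chr6:11907401-11907700, minus strand): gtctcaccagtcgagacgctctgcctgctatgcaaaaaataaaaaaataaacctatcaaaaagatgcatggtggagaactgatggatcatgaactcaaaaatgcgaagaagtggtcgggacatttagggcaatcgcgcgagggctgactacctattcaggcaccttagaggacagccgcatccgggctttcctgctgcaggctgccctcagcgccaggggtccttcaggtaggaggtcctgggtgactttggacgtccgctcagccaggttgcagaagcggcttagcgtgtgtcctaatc
Uqcrfs1 promoter window (GRCm38.p6, chr13:30545267-30545566, minus strand): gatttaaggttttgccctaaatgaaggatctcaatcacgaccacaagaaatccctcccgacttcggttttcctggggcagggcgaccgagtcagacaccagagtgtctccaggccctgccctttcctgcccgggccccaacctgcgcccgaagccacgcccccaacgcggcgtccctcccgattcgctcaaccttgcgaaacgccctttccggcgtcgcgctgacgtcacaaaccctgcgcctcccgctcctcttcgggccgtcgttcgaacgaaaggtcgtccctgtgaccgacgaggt
Cox6a1 promoter window (GRCm38.p6, chr5:115348909-115349208, minus strand): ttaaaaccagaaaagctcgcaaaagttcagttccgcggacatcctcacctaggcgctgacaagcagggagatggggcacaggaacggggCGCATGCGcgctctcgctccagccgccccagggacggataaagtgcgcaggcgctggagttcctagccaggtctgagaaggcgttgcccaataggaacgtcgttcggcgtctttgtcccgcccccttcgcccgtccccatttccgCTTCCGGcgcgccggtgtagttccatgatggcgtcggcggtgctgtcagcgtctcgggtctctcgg
The letters searched on both strands were CGCATGCG for NRF1, CCGGAAG for ETS factors such as GABP, and AAGATGGC for YY1, factors known to act on nuclear genes of the respiratory chain, and no matches overlapped in the 4 windows. The Cox6a1 window held the NRF1 letters with their first base at -161 from the start site and the ETS letters, on the opposite strand, at -16. The windows of Chchd10, Ndufa4 and Uqcrfs1 held none of these letters, which says nothing of the factors themselves.

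A window was found for 41 of the 53 listed genes. NRF1 letters, shortened from a longer form after a first search, occurred in 3 of the 41 (7.32%, Ndufa8, Uqcrc1 and Cox6a1). The share was 2.07% of 27025 genes in the table, which were not limited to genes tested on the arrays. ETS letters occurred in 8 (19.5%, against 9.93%), namely Ndufb7, Ndufs3, Ndufs8, Sdhb, Sdhd, Cox6a1, Cox8a and Chchd3. YY1 letters occurred in 5 (12.2%, against 3.19%), which were Ndufa9, Ndufb8, Ndufc1, Ndufs4 and Ndufs7. All 5 are of complex I, as are 24 of the 41 genes with a window. The genes of the factors gave log2 changes of -0.12 for Nrf1, -0.03 for Gabpa and -0.27 for Yy1 (limma adjusted p from 0.605 to 0.967).

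Complex I, the NADH dehydrogenase, takes electrons from NADH through a chain of iron-sulfur clusters held by its core subunits. Of its 6 core genes measured here, Ndufv1 (which binds NADH and flavin, -0.23), Ndufs3 (-0.21) and Ndufs7 (-0.16) had negative log2 changes, and Ndufs1 (0.20), Ndufv2 (0.15) and Ndufs8 (0.02) had positive ones, with limma adjusted p from 0.617 to 0.976. Ndufs8, with 6 probe sets, had 3 of them positive and 3 negative. The flavin subunit Ndufv1 read 1579 and 1623 in Prox1-labelled clones and 1747 and 2039 in control clones, without overlap.

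The remaining complex I genes encode supernumerary subunits, which surround the core and serve its assembly and stability. Ndufa4, long listed with complex I and since found as a subunit of complex IV, was the gene with the highest log2 change among the 51. It read 3989 and 4431 in Prox1-labelled clones and 2565 and 2637 in control clones. Both Prox1-labelled clones lay above both controls, with a 1.62-fold ratio of means (log2 change 0.68 ± 0.17, limma adjusted p = 0.166). Leaving out a clone moved the change between 0.61 and 0.76, and its adjusted p without control clone 2 was 0.0264, past the threshold. Ndufa4 had 1 probe set.

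Ndufa13, also known as Grim19 for a role in cell death, was the lowest of complex I. It read 2128 and 1942 in Prox1-labelled clones and 3036 and 2729.7 in control clones, with no overlap (log2 change -0.49 ± 0.18, limma adjusted p = 0.265). Its probe set has the suffix _s_at, given to probe sets that can match several transcripts. Ndufa5, a subunit of the matrix arm, read 2511 and 2589 in Prox1-labelled clones against 2171 and 1794 in control clones, again without overlap (0.36 ± 0.18, adjusted p = 0.409), and its other probe set gave 0.43.

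Ndufb9, the complex I probe set with the highest mean intensity, read 5904 and 6100.0 in Prox1-labelled clones and 7331 and 6931 in control clones (log2 change -0.25 ± 0.16, limma adjusted p = 0.528). Also lower in both Prox1-labelled clones than in both controls were Ndufb7 (-0.33), Ndufa6 (-0.31), Ndufa7 (-0.31), Ndufa2 (-0.25) and Ndufc1 (-0.15). Higher without overlap was Ndufa10 (0.18). The 5 probe sets of Ndufa7 all gave negative changes, from -0.44 to -0.25, in which control clone 1 was the highest array each time. The groups overlapped for the rest of the supernumerary subunits, which were Ndufc2 (0.28), Ndufa8 (0.16), Ndufb10 (0.14), Ndufa1 (0.12), Ndufb8 (0.11), Ndufb11 (0.10), Ndufb2 (0.09), Ndufa9 (0.07), Ndufb3 (0.02), Ndufb5 (-0.10) and Ndufs4 (-0.20), a subunit whose loss causes a mitochondrial encephalopathy.

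Ndufb8 and Ndufc2 varied widely between the control clones. Ndufb8 read 2294 and 3007 in Prox1-labelled clones and 3325 and 1786 in control clones, so that both ends of its range were controls. Its log2 change was 0.54 without control clone 1 and -0.33 without control clone 2. Ndufc2 read 3687 and 4382 in Prox1-labelled clones and 4076 and 2657 in control clones, with a change of 0.59 without control clone 1 and -0.02 without control clone 2.

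Complex II, succinate dehydrogenase, is shared with the citric acid cycle and has 4 subunits, all measured here. The groups did not overlap for any of the 4, as for 46.2% of all probe sets tested, and the directions were opposite. Lower in the Prox1-labelled clones were the flavoprotein Sdha and the membrane anchor Sdhc. Sdha read 2038 and 2137 in Prox1-labelled clones against 2602 and 2564 in control clones (log2 change -0.30 ± 0.17, limma adjusted p = 0.466), and its other probe set gave -0.42. Sdhc read 1334 and 1722 in Prox1-labelled clones against 2058 and 1912 in control clones (-0.38 ± 0.20, adjusted p = 0.415), but its other probe set gave 0.02, so its direction was not settled. Higher were the iron-sulfur subunit Sdhb and the anchor Sdhd. Sdhb read 2952 and 2606 in Prox1-labelled clones against 2507 and 2053 in control clones (0.28 ± 0.19, adjusted p = 0.535). Sdhd read 2195 and 1907 in Prox1-labelled clones against 1682 and 1562 in control clones (0.33 ± 0.18, limma adjusted p = 0.451). The dimmer probe set of Sdhd gave -0.25, so its direction was not settled either.

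Complex III, the cytochrome bc1 complex, hands electrons from ubiquinol to cytochrome c. Uqcrq, a small subunit near the ubiquinone site, read 2374 and 2607 in Prox1-labelled clones against 5909 and 3799 in control clones. Both controls were above both Prox1-labelled clones and control clone 1 was the highest, with a mean of 2490.4 ± 165 in Prox1-labelled clones and 4854 ± 1492 in control clones (SD, n = 2 each). The log2 change was -0.92 ± 0.23 (limma adjusted p = 0.165), and it stood at -0.60 without control clone 1 and at -1.23 without control clone 2, where it was called (adjusted p = 0.00283). The probe set has the suffix _s_at. The other 3 probe sets of Uqcrq were much dimmer, between 65.6 and 201, and gave -0.06, -0.14 and -0.26.

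Uqcrfs1, the Rieske iron-sulfur protein, read 1307 and 1159 in Prox1-labelled clones against 1973 and 1949.5 in control clones. The groups were apart and the control clones were close to each other, with means of 1233 ± 105 in Prox1-labelled clones and 1961 ± 16.3 in control clones (SD, n = 2 each). Its log2 change was -0.65 ± 0.18 (limma adjusted p = 0.185) from 1 probe set, between -0.74 and -0.57 on leaving out a clone. Cyc1, the cytochrome c1 gene, read 4019 and 4751 in Prox1-labelled clones against 5742 and 5636 in control clones (-0.38 ± 0.17, adjusted p = 0.359).

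The ubiquinone-binding subunit gene Uqcrb read 10961 and 10839 in Prox1-labelled clones against 14620.5 and 11566 in control clones (log2 change -0.25 ± 0.17, limma adjusted p = 0.542). Leaving out control clone 2 gave -0.42 (adjusted p = 0.0449), past the threshold, and it stood at -0.09 without control clone 1. The core protein gene Uqcrc1 gave -0.16 without overlap, and its partner Uqcrc2 gave -0.01 with overlap and 0.25 from its other probe set. The median of complex III was -0.27 under quantile normalization and -0.36 under median centring.

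**Figure D3:**
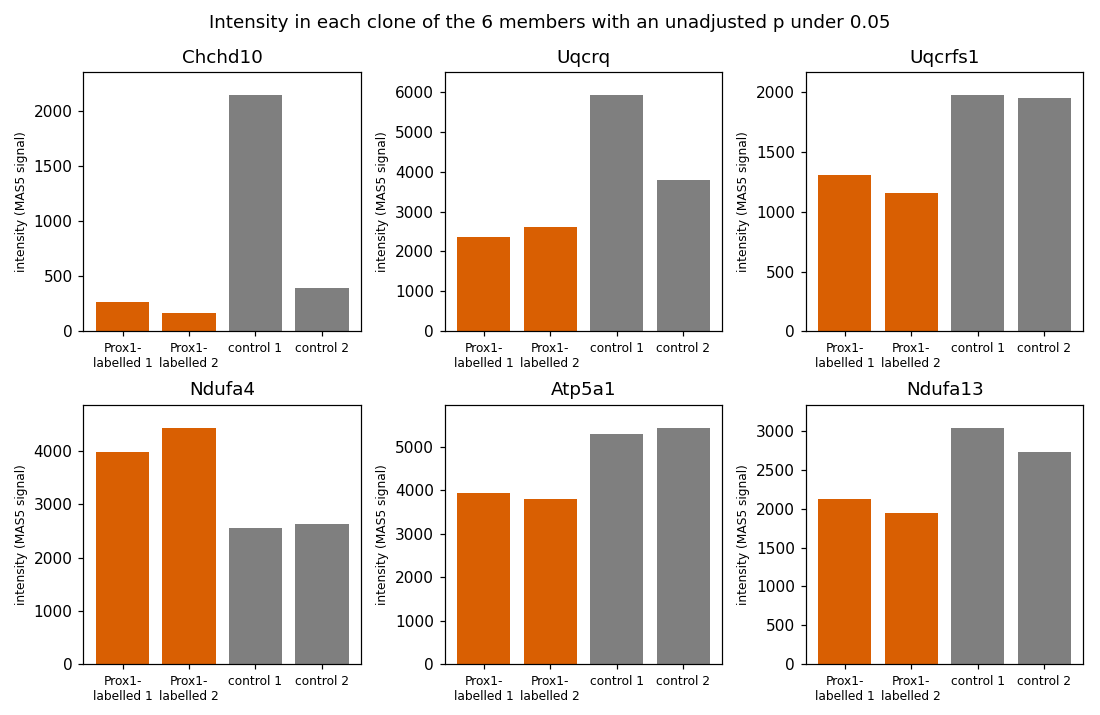
MAS5 signal intensity (y axis, linear, from 0) in each of the 4 clones (x axis, Prox1-labelled clones in orange, control clones in grey) for the 6 genes with an unadjusted p under 0.05. Chchd10 and Uqcrq have their highest bar in control clone 1, whereas the control bars of Uqcrfs1, Ndufa4 and Atp5a1 are close to each other.

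Complex IV, cytochrome c oxidase, had 7 listed genes measured. By the probe set that represents each gene, 6 of the 7 had log2 changes within 0.2 of 0, with overlap between the groups. Other probe sets of Cox6c (0.85) and Cox5a (0.69 and -0.21) lay outside that bound, without overlap. Cox8a, a small membrane subunit, was the exception among the 7, with 4683 and 4646 in Prox1-labelled clones against 6809 and 5274 in control clones (log2 change -0.36 ± 0.18, limma adjusted p = 0.411). Without control clone 1 it stood at -0.18, and without control clone 2 at -0.54, where it was called (adjusted p = 0.042). Its other probe set above the filter, of like intensity, gave -0.19, which is within 0.2 of 0, again without overlap.

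Cox6a1, the complex IV probe set with the highest mean intensity, read 12004 and 13060.2 in Prox1-labelled clones and 15813 and 11759 in control clones, which lie on either side (log2 change -0.12 ± 0.18, limma adjusted p = 0.812). Cox5a read 7235 and 8371 in Prox1-labelled clones and 9376 and 7481 in control clones (-0.11 ± 0.18, adjusted p = 0.840). Cox4i1, the regulatory subunit that binds ATP, gave 0.08, Cox5b gave 0.07, Cox7a2 gave 0.04 and Cox6c gave 0.04. Counting Ndufa4 with complex IV, an alternative added after the data were seen, left the median at 0.04 and that of complex I at 0.02. Of 4 further complex IV subunits, Cox6b1 (0.12) overlapped between the groups, and the tissue-restricted forms Cox4i2 (-0.27), Cox6a2 (-0.67) and Cox6b2 (0.99) did not.

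The 5 listed genes of complex V, the ATP synthase, encode the catalytic head, its stalk and the connection to the membrane part. All 5 were lower without overlap, against 22.3% of all probe sets tested. Of all 15 complex V subunits measured, 8 were lower without overlap and 1 was higher without overlap. Atp5a1, the alpha subunit, read 3927 and 3795 in Prox1-labelled clones against 5303 and 5425 in control clones. The gap between the groups was wider than the gaps within them, with means of 3861 ± 93.7 in Prox1-labelled clones and 5364 ± 86.2 in control clones (SD, n = 2 each), a log2 change of -0.47 ± 0.16 and a limma adjusted p of 0.253. On leaving out a clone it stayed between -0.49 and -0.45, and its other probe set above the filter gave -0.33.

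The catalytic beta subunit gene Atp5b, the complex V probe set with the highest mean intensity, read 7070.0 and 7106 in Prox1-labelled clones against 8932 and 8296 in control clones (log2 change -0.28 ± 0.16, limma adjusted p = 0.462). Atp5c1, the gamma subunit gene, read 6356 and 6063 in Prox1-labelled clones against 8615 and 6957 in control clones (-0.32 ± 0.17, adjusted p = 0.444), with -0.16 without control clone 1. Atp5o, which joins the head to the side stalk, gave -0.20 and the delta subunit gene Atp5d gave -0.19. Of the 10 further complex V subunits measured, Atp5g2 (-0.17), Atp5l (-0.11) and Atp5g3 (-0.11) were lower without overlap, Atp5j (0.12) was higher without overlap, and the groups overlapped for the other 6. The median of the 5 listed genes was -0.24 under quantile normalization, -0.32 under median centring and -0.22 without control clone 1.

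Chchd10, which encodes a small intermembrane space protein linked to motor neuron disease and myopathy, had the lowest log2 change of the 51 genes and the widest spread between control clones. It read 266 and 169.6 in Prox1-labelled clones and 2143 and 398 in control clones. Both controls were above both Prox1-labelled clones, but control clone 1 was far above control clone 2. The mean was 218 ± 67.9 in Prox1-labelled clones and 1270.4 ± 1234 in control clones (SD, n = 2 each), and the log2 change was -1.92 ± 0.59 (limma adjusted p = 0.209). It stood at -0.77 without control clone 1 (adjusted p = 0.164) and at -3.07 without control clone 2 (adjusted p = 0.000317).

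The other probe set of Chchd10 was dimmer and below the filter, with 158 and 73.5 in Prox1-labelled clones and 985 and 135 in control clones, so that both probe sets were highest in control clone 1 and lowest in Prox1-labelled clone 2. Both carry the suffix _s_at. Chchd3, a subunit of the cristae-shaping MICOS complex, read 1876 and 1927 in Prox1-labelled clones against 1948 and 2187 in control clones (log2 change -0.12 ± 0.18, limma adjusted p = 0.818), and its dimmer probe set gave 0.30.

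Probe sets of a gene did not always change in the same direction, and not only where changes were small, as for Cox5a (-0.11, -0.21 and 0.69). Of 30 genes with several probe sets above the filter, 21 had all of them in the same direction. The 9 others were Ndufb11, Ndufs8, Sdhc, Sdhd, Uqcrc2, Cox5a, Cox5b, Cox7a2 and Chchd3. Of all 95 probe sets of the 51 genes above the filter, 0 were called.

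Other genes of the mitochondrion were read from lists of the same fit, and 0 genes of any of these lists were called. The 25 further genes of complexes I to V, which include cytochrome c (Cycs) and the ATP synthase inhibitor Atpif1, had 14 positive and 11 negative log2 changes, with a median of 0.06. Among them Cox6b2, a testis form of a complex IV subunit, read 301 and 209 in Prox1-labelled clones against 107 and 100.1 in control clones (0.99 ± 0.24, limma adjusted p = 0.163). Uqcrh, the hinge protein of complex III, read 1753 and 1958 in Prox1-labelled clones against 1233 and 1199 in control clones (0.59 ± 0.18, adjusted p = 0.211), opposite in sign to the 6 listed complex III genes.

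Assembly factors had 14 of 30 positive, with a median of -0.04. Ndufaf4, an assembly factor of complex I, read 1022 and 1369 in Prox1-labelled clones against 685 and 685 in control clones (0.75 ± 0.21, limma adjusted p = 0.181), and Timmdc1, another, read 156 and 242 in Prox1-labelled clones against 330.5 and 354 in control clones (-0.68 ± 0.23, adjusted p = 0.248). Other Chchd and cristae genes had 8 of 16 positive, with a median of -0.07. Chchd5 gave -0.53 and Chchd7 gave 0.54 (adjusted p = 0.269 and 0.329). Pyruvate dehydrogenase and the citric acid cycle had 8 of 16 positive, with a median of 0.03. Dlat, the acetyltransferase of pyruvate dehydrogenase, gave -0.73 and the fumarase gene Fh1 gave 0.34 (adjusted p = 0.248 and 0.456).

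Regulators of mitochondrial biogenesis and mtDNA expression had 5 of 14 positive, with a median of -0.08. Tfb1m, a methyltransferase of mitochondrial ribosomal RNA, gave 0.77 and Ssbp1, which binds mtDNA, gave 0.56 (limma adjusted p = 0.209 and 0.301). Mitochondrial import genes had 16 of 21 negative, with a median of -0.17, and 9 of the 21 (42.9%) were lower without overlap while 0 were higher, against 22.3% lower and 23.9% higher of all probe sets tested. Tomm34 gave -0.51 and Timm23, the inner membrane channel gene, gave -0.40 (adjusted p = 0.306 and 0.359). Of 74 mitochondrial ribosomal protein genes, 44 were negative, with a median of -0.05. Mrps33 gave 0.64 and Mrps16 gave -0.66 (adjusted p = 0.192 and 0.202).

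**Figure D4:**
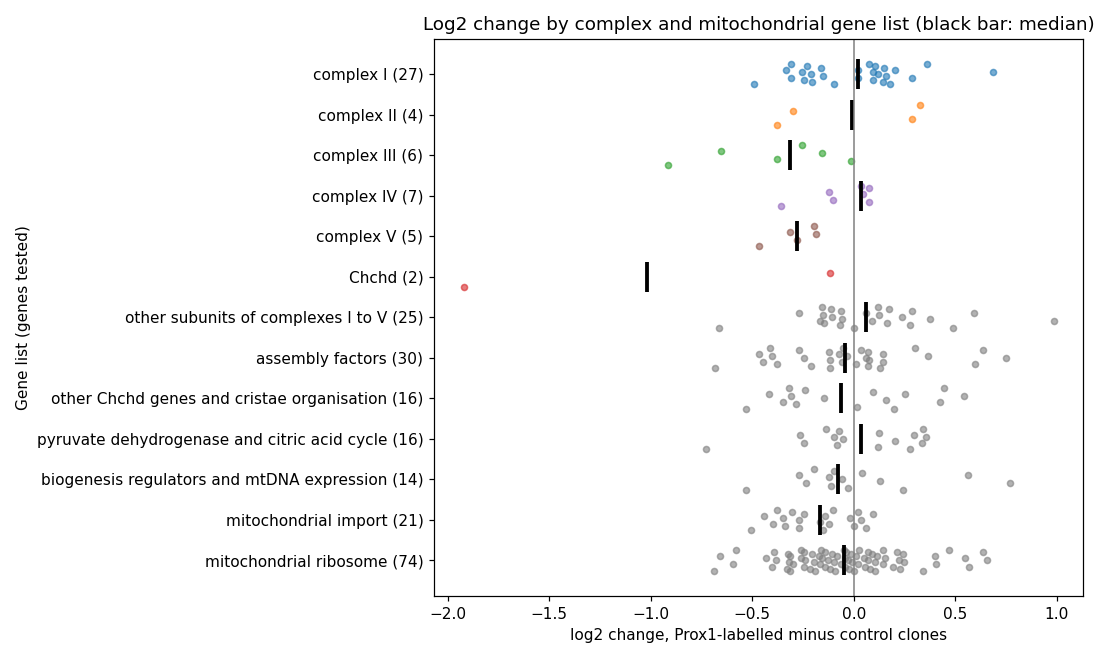
Log2 change (x axis, Prox1-labelled minus control clones) of the genes of each complex and of 7 further mitochondrial lists (y axis, genes tested in brackets), with a point for each gene, spread vertically for legibility, and a black bar for the median. The medians of the listed genes of complex III (-0.32), complex V (-0.28) and the 2 Chchd genes (-1.02) lie farther left than those of the 7 further lists, which run from -0.17 to 0.06. Over all measured subunits the medians were -0.16 for complex III (9 genes) and -0.15 for complex V (15 genes), within that range.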

How the data were processed

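RNA of 4 Py-4-1 clones was measured on 1 array each, and groups and clone numbers come from the sample titles. The authors deposited 1 linear intensity for each probe set and array, made with MAS5 per the submitters' processing notes (version not given in the sources used here). Every column had a mean of 500 after trimming 2% at either end, and no further normalization was applied. Detection calls were not used here, and the number of arrays limits the precision.

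Of 22690 probe sets, 64 Affymetrix controls were left out. The platform annotation gave 1 gene for 20380 of the others, several for 691 and no gene for 1555. Values were analysed as log2(intensity + 47.2), the 25th percentile of all values. Probe sets above the array median in at least 2 arrays were tested (11656) with limma 3.58.1 in R 4.3.3 (lmFit, then eBayes with trend, 2-sided) and adjusted over all of them by Benjamini-Hochberg at a threshold of 0.05. The ± after a log2 change is the fit's standard error, which draws in part on probe sets of like intensity. The procedure was tested on simulated data.

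Members and lists were chosen with earlier results of these data known. All members are named. Values of every clone are given for the 3 members of each complex with the smallest unadjusted p, its probe set with the highest mean, members with an absolute log2 change of at least 0.5 and the Chchd genes. Other lists are represented by the 2 genes with the smallest unadjusted p. Ndufv1, Ndufb8, Ndufc2, Nrf1, Gabpa, Yy1 and the further complex III, IV and V subunits named with a log2 change alone were chosen after their values were seen. Alternatives varied the scaling, pseudocount, filter, variance model, clone number as a block, clones and probe sets. Promoter windows come from RefSeq, and the NRF1 letters were shortened from a longer form after a first search.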

Additional observations from a re-analysis of the deposited data

How the results depend on the processing

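Among the 51 genes, 33 kept the sign of their log2 change under every alternative run, and the 18 that did not had changes within 0.28 of 0. Under median centring Ndufb3 (-0.026), Ndufs8 (-0.026), Cox6c (-0.0098) and Cox7a2 (-0.0013) turned negative. With the mean over a gene's probe sets above the filter, Uqcrc2 (0.12), Cox5a (0.12) and Chchd3 (0.093) turned positive and Cox5b (-0.020) and Cox7a2 (-0.0078) negative, and with probe sets without a suffix Cox5b (-0.038) and Cox7a2 (-0.059) did. Leaving out a clone gave ranges across 0 for Ndufa1 (-0.052 to 0.29), Ndufa9 (-0.083 to 0.23), Ndufb2 (-0.12 to 0.30), Ndufb3 (-0.0096 to 0.048), Ndufb5 (-0.20 to 0.0038), Ndufb8 (-0.33 to 0.54), Ndufb10 (-0.0075 to 0.29), Ndufb11 (-0.039 to 0.23), Ndufc2 (-0.020 to 0.59), Ndufs1 (-0.011 to 0.41), Ndufs8 (-0.084 to 0.12), Uqcrc2 (-0.17 to 0.14), Cox5a (-0.27 to 0.057), Cox5b (-0.070 to 0.22), Cox6a1 (-0.34 to 0.090) and Cox7a2 (-0.068 to 0.15). Medians on leaving out a clone ran from -0.11 to 0.032 for complex I, -0.084 to 0.044 for complex II, -0.41 to -0.26 for complex III, -0.070 (without control clone 2) to 0.090 (without control clone 1) for complex IV, -0.33 to -0.22 for complex V and -1.55 (without control clone 2) to -0.48 (without control clone 1) for the Chchd genes. The complex II median was -0.070 with the mean over probe sets and 0.28 without suffixed probe sets (3 genes), and that of complex V was -0.37 without them (2 genes). The complex IV median, 0.04, was -0.059 without suffixed probe sets and -0.0098 under median centring, and that of complex I was -0.026 under median centring. The Chchd median of -1.02 was -0.12 without Chchd10, an alternative added after the data were seen, and equally with the filter at the 75th percentile or without suffixed probe sets, each of which leaves Chchd3 alone. The count of probe sets called, 12, was 4 under quantile normalization, 7 with the robust variance model, 0 without the filter (limma, 2299 at an unadjusted p under 0.05) and 42 to 1150 on leaving out a clone. The members called were 0 to 5 on leaving out a clone, fits that hold no spread for the group left with 1 array. The labels give both groups clone numbers 1 and 2 but do not say that a number marks anything shared. The differences between clones 1 and 2 had a correlation of -0.0091 between the groups across probe sets. With the clone number as a replicate block 110 probe sets and 1 member, Chchd10 (limma adjusted p = 0.00862), were called. The cause of these differences was not tested.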

Other observations

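Chchd2, a paralog of Chchd10, could not be read alone. The probe set assigned to it and to Chchd2-ps read 8823 and 9253 in Prox1-labelled clones against 10808 and 9710.2 in control clones (log2 change -0.18 ± 0.16, limma adjusted p = 0.661). The probe set assigned to 3 genes, Chchd2 among them, read 8041 and 9117 in Prox1-labelled clones against 8576 and 6615 in control clones (0.18 ± 0.18, adjusted p = 0.708). The probe sets have opposite signs, and neither value is attributed to a gene.

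Some dimmer probe sets of complex IV genes stood apart from the probe set that represents the gene. A probe set of Cox6c with the suffix _a_at read 3463 and 4517 in Prox1-labelled clones against 2823 and 1677 in control clones (log2 change 0.85 ± 0.26, limma adjusted p = 0.209), beside 0.04 for the brighter probe set. A probe set of Cox5a with the suffix _x_at read 2617 and 3052 in Prox1-labelled clones against 1916 and 1569 in control clones (0.69 ± 0.19, adjusted p = 0.185), beside -0.11 and -0.21 for its brighter probe sets. These were chosen after their values were seen, and whether they match other transcripts was not tested.

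Cox6a2, the striated muscle form of Cox6a1, read 229.9 and 259 in Prox1-labelled clones against 367 and 467 in control clones (-0.67 ± 0.21, limma adjusted p = 0.220). Of 5 striated muscle markers, 1 passed the filter (Tnnt2), at 317 and 319 in Prox1-labelled clones and 105 and 301 in control clones. The marker sums were 448 to 485 in Prox1-labelled clones and 285 to 458 in control clones. Whether Cox6a2 is related to these markers was not tested.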
